A study of Mus musculus with 2 samples.

Results

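Macrophages of the mouse incisor pulp were described here from 1 deposited single-cell RNA matrix. They were chosen by rule as barcodes with at least 500 detected genes, at most 20% mitochondrial and at most 5% haemoglobin UMIs (unique molecular identifiers, each counting 1 captured RNA molecule). A member also held at least 5 UMIs of the complement genes C1qa, C1qb and C1qc together and at least 2 UMIs of Csf1r, Adgre1, Mrc1 and Ms4a7 together. Barcodes with any UMI of Cd79a, Cd3d, Cd3e or Cd3g, or with more than 1 UMI of Epcam and Cdh1 together, were left out. The rule found 506 macrophages among 4543 barcodes that passed the first 3 limits, which is 11.1% (exact binomial 95% interval 10.2 to 12.1).

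The tissue came from untreated C57BL/6 mice aged 4 weeks housed pathogen-free. Pulp and dental epithelium of the mandibular incisor were isolated together after the bone was cut away and the proximal end was removed, although the tissue label reads dental mesenchyme. The pieces were digested with collagenase type I at 2 mg/ml for 30 min, and the cells were loaded on a 10x 3′ version 3 chip with a target of 10000 cells. The 2 deposited titles name 2 sequencing lanes of what is stored as 1 matrix, the number of animals is not given, and no column ties a barcode to a lane, so there was 1 sample with no replicate and barcodes shared between lanes could not be counted. All comparisons below are therefore between classes of cells of the same suspension, with no treatment, genotype or time to contrast. Each level is given in CPM, the UMIs of a gene scaled to the same total for every class, with an exact Poisson 95% interval, and each ratio with an exact conditional binomial 95% interval; these intervals cover counting error only, and no p-value was computed from cells.

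Tissue macrophages are phagocytes that live in nearly every organ, take up dead cells and debris, break them down in lysosomes and release signals to other cells. C1q is the recognition part of the classical complement pathway and tags dying cells and synapses for uptake, and tissue macrophages are one of its main sources. Mrc1 (CD206) is a mannose receptor that binds sugars on glycoproteins and is typical of resident macrophages, Csf1r is the receptor for the growth factors that keep macrophages alive, and the dental pulp is known to hold a dense network of such cells around vessels and beneath the odontoblasts. Macrophages of several organs are known to include cells with much and cells with little MHC class II, the protein complex that shows peptides to helper T cells.

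The promoters of 5 genes that carry the results are shown first: C1qb and Pf4, which mark the cells, the chemokine genes Ccl8 and Ccl12, for which monocytes and dendritic cells held no UMI, and H2-Aa, a chain of the MHC class II molecule whose level varied widely between macrophages. Each sequence is the 250 bases before the RefSeq transcription start, from the GRCm38.p6 assembly, written 5′ to 3′ on the strand of the gene, and capitals mark the searched letters. C1qb lies at chr4:136886201-136886450 on the minus strand, Pf4 at chr5:90772185-90772434 on the plus strand, Ccl8 at chr11:82114935-82115184 on the plus strand, Ccl12 at chr11:82101595-82101844 on the plus strand and H2-Aa at chr17:34287824-34288073 on the minus strand.
C1qb: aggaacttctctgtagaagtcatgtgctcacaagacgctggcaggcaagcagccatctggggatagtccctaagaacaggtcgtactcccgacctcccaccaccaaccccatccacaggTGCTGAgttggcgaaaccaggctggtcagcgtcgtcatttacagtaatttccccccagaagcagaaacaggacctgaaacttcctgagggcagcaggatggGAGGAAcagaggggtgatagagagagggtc
Pf4: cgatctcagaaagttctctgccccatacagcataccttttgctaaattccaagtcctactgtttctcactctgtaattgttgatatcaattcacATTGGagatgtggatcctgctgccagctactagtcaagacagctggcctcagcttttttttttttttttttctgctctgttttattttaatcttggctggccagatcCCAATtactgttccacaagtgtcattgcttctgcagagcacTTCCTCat
Ccl8: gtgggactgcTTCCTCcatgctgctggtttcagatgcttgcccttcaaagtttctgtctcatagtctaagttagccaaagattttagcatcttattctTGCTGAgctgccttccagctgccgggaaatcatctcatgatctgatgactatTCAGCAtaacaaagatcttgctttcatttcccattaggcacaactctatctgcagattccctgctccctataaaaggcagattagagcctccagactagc
Ccl12: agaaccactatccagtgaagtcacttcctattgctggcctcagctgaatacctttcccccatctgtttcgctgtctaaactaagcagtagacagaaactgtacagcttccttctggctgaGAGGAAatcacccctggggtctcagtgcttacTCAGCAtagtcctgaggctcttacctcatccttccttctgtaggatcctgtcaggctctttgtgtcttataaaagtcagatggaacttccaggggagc
H2-Aa: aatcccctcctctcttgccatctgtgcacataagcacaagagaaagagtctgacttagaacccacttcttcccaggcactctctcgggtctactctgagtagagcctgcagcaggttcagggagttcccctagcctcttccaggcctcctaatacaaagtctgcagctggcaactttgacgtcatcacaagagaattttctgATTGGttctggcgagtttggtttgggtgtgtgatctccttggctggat

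The letters searched on both strands were GAGGAA (a core bound by the myeloid factor PU.1), TGANTCA (bound by AP-1), TGCTGA (a core of the MAF site) and ATTGG (the Y box of MHC class II promoters); no 2 matches overlapped. GAGGAA or its complement occurred once each in C1qb (bases 30 to 25 before the start), Pf4 (8 to 3), Ccl8 (240 to 235) and Ccl12 (130 to 125). TGCTGA or its complement occurred in C1qb (131 to 126), in Ccl8 at 152 to 147 and at 100 to 95, and in Ccl12 (98 to 93). ATTGG or its complement occurred in H2-Aa (48 to 44) and in Pf4 at 156 to 152 and at 49 to 45, and TGANTCA was in none of the 5 windows. Over the windows of the same kind and length of 32817 RefSeq promoters, GAGGAA was held by 23.3%, TGANTCA by 6.75%, TGCTGA by 16.1% and ATTGG by 33.8%. The matches are a description of letters and do not show that a factor binds there; the genes and letters were chosen after the expression values were seen.

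The genes of the rule chose the cells, so their levels are given as a description only. The summed C1q genes held from 5 to 189 UMIs per macrophage with a median of 49, and the 4 macrophage genes together from 2 to 76 with a median of 13. C1qa was found in 504 of the 506 cells (99.6%), C1qb in 503, C1qc in 501, Csf1r in 477 (94.3%), Ms4a7 in 435 (86.0%), Mrc1 in 412 (81.4%) and Adgre1, which encodes the antigen F4/80, in 327 (64.6%). In the mesenchyme, where a rule allowed at most 1 C1q UMI, 87 of 1732 cells (5.02%) held 1. The edge of the rule was thin: 15 barcodes had 4 C1q UMIs, of which 4 met all other limits, and 7 had 5, of which 2 did. Of 565 passing barcodes with at least 5 C1q UMIs, 59 were left out, 39 of them for too few UMIs of the macrophage genes, 12 for Cd79a, 6 for a Cd3 gene and 9 for Epcam and Cdh1, and a barcode could fail for more than 1 reason.

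The label of the cells also names Pf4 and Ccl7, which the rule did not use. Pf4, a chemokine best known from platelets and also made by resident macrophages, held a median of 7 UMIs per macrophage and up to 107. After each barcode had been thinned to 2000 UMIs, which kept 434 macrophages and left out 72 shallower ones, Pf4 was found in 79.7% of macrophages (75.6 to 83.4), against 0.479% of 1671 mesenchyme cells. Unthinned, 436 macrophages (86.2%) and 1.96% of mesenchyme cells held it. Ccl7, a chemokine that draws monocytes, was found in 54.4% of thinned macrophages (49.6 to 59.1) and in 0.479% of thinned mesenchyme cells, and in 278 macrophages (54.9%) unthinned. Most macrophages thus carried Pf4, and a smaller share Ccl7.

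The macrophages held 2708300 UMIs, 3.93% of all UMIs in the matrix, with a median of 4750.5 UMIs per cell (835 to 19735), 1657.5 genes and 9.38% mitochondrial UMIs. They were set against 57 monocytes, 55 dendritic cells and 1732 mesenchyme cells of the same matrix, with median depths of 4216, 4865 and 7662.5 UMIs and mitochondrial shares of 7.21%, 7.23% and 6.64%. Monocytes were chosen by Ly6c2 with Csf1r or Ccr2, dendritic cells by MHC class II with Flt3, Zbtb46, Xcr1, Clec9a, Cd209a or Itgax, and mesenchyme by Col1a1, Col1a2 and Col3a1 without Ptprc, each with at most 1 C1q UMI, so the direction of those genes is set by the choice. Of the monocytes, 12 of 57 held more than 2 UMIs of the granule protease genes Mpo, Prtn3, Elane and Ctsg, which precursors of granulocytes and monocytes make. Scrublet, a doublet caller, scored 13 macrophages (2.57%) above 0.15, and they were kept in the main values.

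Markers of other cells were counted in the macrophages as summed levels. T and NK cell markers reached 18.1 CPM, endothelial markers 46.5 and mast cell markers 2.22, while B cell markers reached 190 and monocyte markers 309 (12494 in the monocytes). Clec9a and Ccr7 of 15 dendritic cell markers were at 0 UMIs, as were Ly6g and Elane of 14 neutrophil markers. Ms4a1, Vpreb3 and Pax5 of 8 B cell markers, Cd2 of 8 T and NK markers and Calcr of 12 osteoclast genes were too. Of 6 mast cell markers 5 were at 0, as were Cd177 of 15 monocyte markers and Car1 of 8 erythroid markers. All other members of these lists held UMIs. Summed, dendritic cell markers reached 872 CPM (1700 in dendritic cells) and erythroid markers 1181. Osteoclast genes reached 639, against 519 in dendritic cells and 115 in monocytes. Markers of mesenchyme reached 991 CPM and those of dental epithelium 2157, and 10 macrophage barcodes had more than 1% of their UMIs from either list. Amelx, the main enamel matrix gene, showed how few barcodes can set a level: 3193 of its 4443 UMIs lay in 1 barcode and the next held 52, and it was at 1641 CPM with and at 429 without those 10 barcodes, against 14928 in the free RNA of near-empty barcodes. Neutrophil markers stood at 291, and 69.5% of those UMIs lay in 1 barcode.

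Against the 57 monocytes, 7717 genes had at least 30 UMIs over both classes and were measured, and 1690 of them (21.9%) were higher in macrophages by 2-fold or more and 620 (8.03%) were lower by as much, with a median log2 ratio over all of them of 0.16. Against the 55 dendritic cells, 2086 of 7604 genes (27.4%) were higher and 496 (6.52%) lower, with a median of 0.42, and against mesenchyme 2062 of 12560 (16.4%) were higher and 3793 (30.2%) lower, with a median of −0.38. The interval excluded no change for 1037, 1045 and 2047 of the higher genes and for 553, 437 and 3496 of the lower ones. Since macrophages held 2708300 UMIs and monocytes 339284, a gene could reach 30 UMIs through the macrophages alone, so the counts over measured members of a list describe these members and are not evidence for the list. A gene with 0 UMIs on 1 side was set to a floor of 3 UMIs there, and its ratio is then a lower bound. The dot plot of 25 genes shows the levels in all 4 classes.

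**Figure D1:**
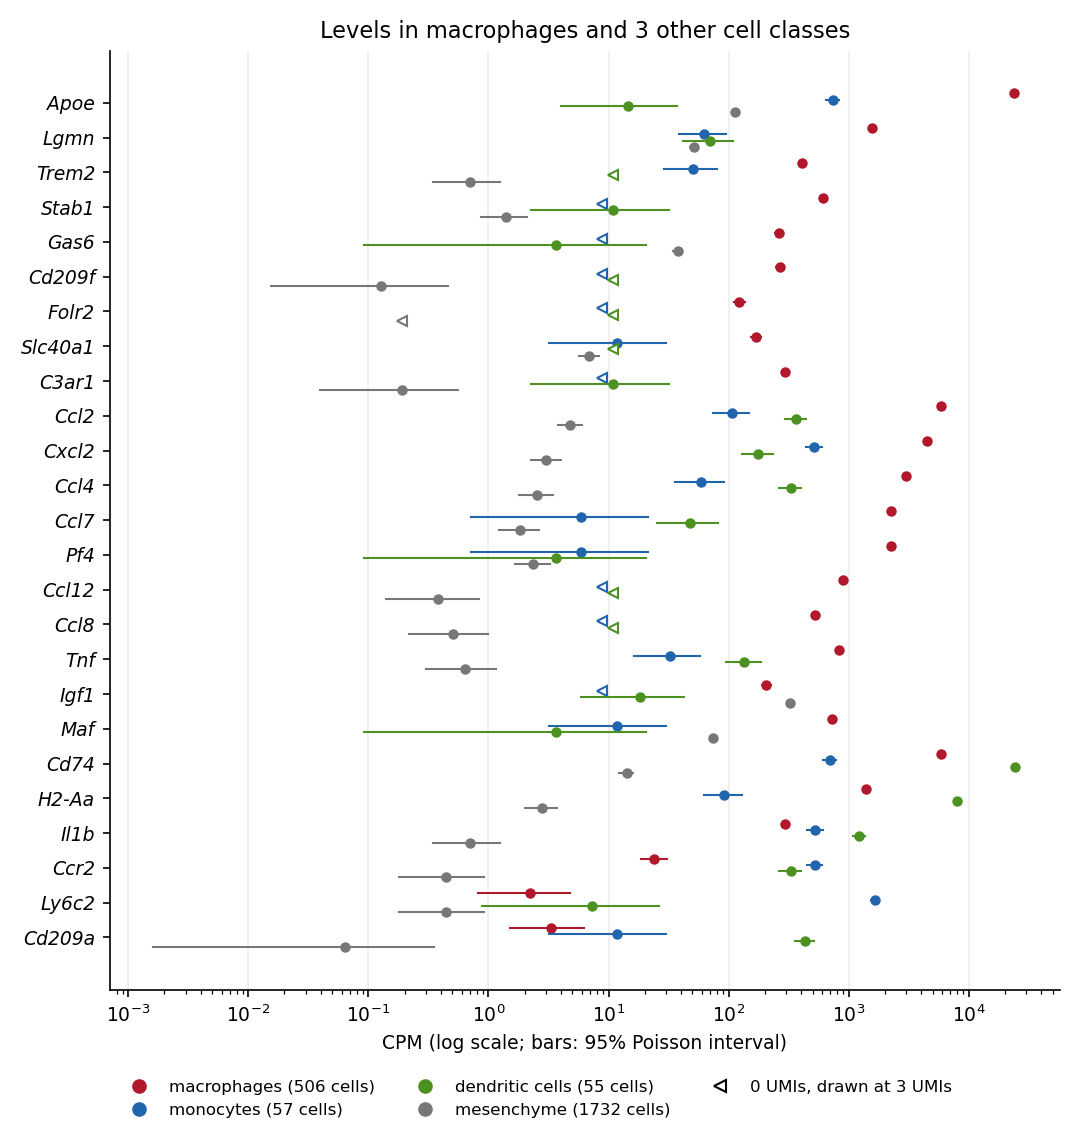
CPM (x axis, log scale) of 25 genes (y axis) in macrophages, monocytes, dendritic cells and mesenchyme; dots are levels, bars exact Poisson 95% intervals, and open triangles mark 0 UMIs drawn at the floor of 3 UMIs. Macrophages stand highest for Apoe (23737), Ccl2 (5913) and Pf4 (2237), dendritic cells for Cd74 (24427) and H2-Aa (7950), and monocytes for Ly6c2 (1662).

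Complement genes beyond C1q were led by receptors. C3ar1, the receptor for the fragment C3a, was at 298 CPM (277 to 319) in macrophages, at 0 in monocytes, at 11.0 in dendritic cells and at 0.190 in mesenchyme, which made it at least 33.7-fold higher than in monocytes. C5ar1, the receptor for C5a, was at 163, 35.4, 0 and 0.507. Fcna, a ficolin that recognises sugars and starts the lectin pathway, was at 154 in macrophages and at 0 in monocytes, at least 17.4-fold higher. These 3 genes were the highest in macrophages of the 4 classes.

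Cfp, which stabilises the alternative pathway, stood at 128 CPM in macrophages and at 121 in dendritic cells, within 2-fold (log2 ratio 0.08, −0.43 to 0.64). C3 itself, the central component, was lower in macrophages (12.9) than in monocytes (186), with a log2 ratio of −3.84 (−4.48 to −3.23). Of 21 listed complement genes, 15 were measured against monocytes, of which 10 were higher by 2-fold or more and 2 lower, with a median log2 ratio of 1.77, or 0.94 without the monocytes with granule protease RNA. Against dendritic cells 16 were measured, 4 higher and 3 lower, with a median of 0.48, close to the 0.42 of all genes. Against mesenchyme 12 of 16 were higher and 2 lower, with a median of 5.76.

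Receptors for dead cells and modified proteins set macrophages apart from both myeloid classes. Stab1, a scavenger receptor for modified lipoproteins and phosphatidylserine, was at 610 CPM (581 to 640) in macrophages and at 0, 11.0 and 1.39 in monocytes, dendritic cells and mesenchyme. Trem2, a lipid-sensing receptor of phagocytes, was at 406, 50.1, 0 and 0.697. Gas6, the bridge between phosphatidylserine and the kinases Mertk and Axl, was at 263, 0, 3.66 and 37.6.

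Both kinases were highest in macrophages, with Axl at 171 CPM in macrophages and 2.95, 32.9 and 22.2 in the other classes, and Mertk at 99.7, 5.89, 0 and 14.7. Cd209f, a C-type lectin, was at 269 in macrophages and at 0 in both myeloid classes. Dab2, an adaptor for receptor uptake, was at 557, 2.95, 132 and 23.8, and Fcrls, an Fc receptor-like gene known from microglia, at 471, 0, 3.66 and 0.127. Folr2, a folate receptor of resident macrophages, was at 123 in macrophages and at 0 in all 3 other classes, and Lyve1, a hyaluronan receptor of perivascular macrophages, was at 63.5 against 0 in all 3. Lyve1 was found in 4.84% of thinned macrophages (3.02 to 7.30) and Folr2 in 18.9% (15.3 to 22.9). Neither was found in a thinned cell of the other classes, of which monocytes gave only 56 and dendritic cells 49. After thinning, the lower bound of the Lyve1 log2 ratio fell under 2-fold against both. It went from 2.84 to 0.46 over monocytes and from 2.53 to 0.27 over dendritic cells.

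Cd163, the receptor for haptoglobin and haemoglobin complexes, was at 102 CPM in macrophages and 102 in dendritic cells, and did not differ between them (log2 ratio −0.00, −0.56 to 0.62), but was at 0 in monocytes. Lgals3, a galectin that is abundant in inflammatory phagocytes, was lower in macrophages (146) than in monocytes (1907) and dendritic cells (705), with log2 ratios of −3.71 (−3.90 to −3.53) and −2.28 (−2.53 to −2.02). Of the 31 listed scavenger and efferocytosis genes that the matrix holds, 25 were measured against monocytes with 15 higher, 3 lower and a median log2 ratio of 2.00, and 27 against dendritic cells with 16 higher, 5 lower and a median of 2.53. Against mesenchyme 21 of 26 were higher and 2 lower, with a median of 7.74.

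Fc receptors and their signalling chains were shared with the other myeloid cells to a larger extent. Fcgr1, the high-affinity IgG receptor, was at 265 CPM in macrophages, 32.4 in monocytes and 43.9 in dendritic cells, and Fcgrt, the recycling IgG receptor, at 418, 41.3 and 154. The adaptor Tyrobp was at 2438, 3051 and 2365, and Fcer1g at 2743, 1875 and 1952. All 12 listed genes were measured in each comparison: 5 were higher and 2 lower than in monocytes (median log2 ratio 0.76), 5 higher and 0 lower than in dendritic cells (0.37), and 12 higher than in mesenchyme (8.28).

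Lipid handling was dominated by Apoe, the apolipoprotein that carries cholesterol out of cells. It was at 23737 CPM (23554 to 23922) in macrophages, 740 in monocytes, 14.6 in dendritic cells and 112 in mesenchyme, and was the second most abundant RNA of the macrophages by UMIs after Tmsb4x. Its log2 ratio was 5.00 (4.83 to 5.19) over monocytes and 10.66 (9.31 to 12.54) over dendritic cells, and it was found in 95.6% of thinned macrophages, 44.6% of thinned monocytes and 18.6% of thinned mesenchyme cells. Without the 12 monocytes that held granule protease RNA, an alternative added after seeing the data, the log2 ratio of Apoe over monocytes was 4.20. Abca1, the cholesterol exporter that loads Apoe, was at 240, 5.89, 7.31 and 27.2 in the same order of classes.

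Named genes of eicosanoid synthesis did not all go the same way against the myeloid classes. Ltc4s, which makes leukotriene C4, was at 319 CPM in macrophages and at 0, 7.31 and 0.507 in the others, and Hpgds, which makes prostaglandin D2, at 189, 8.84, 21.9 and 0.570. Alox5ap, which feeds the first step of leukotriene synthesis, was lower in macrophages (272) than in monocytes (917, log2 ratio −1.75, −1.94 to −1.55) and dendritic cells (735, −1.43, −1.66 to −1.20). Of 20 lipid genes, 11 of 16 measured were higher and 1 lower than in monocytes (median 2.28), 12 of 16 and 1 against dendritic cells (2.37), and 17 of 19 and 2 against mesenchyme (4.24).

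Most lysosomal genes were higher in macrophages than in either myeloid class. Ctsb was at 2554 CPM (2494 to 2615) in macrophages, 477 in monocytes, 208 in dendritic cells and 169 in mesenchyme. Lgmn, the asparaginyl protease legumain, was at 1550, 61.9, 69.4 and 51.1, and was found in 90.1% of thinned macrophages against 8.93%, 8.16% and 9.16% of thinned cells of the other classes. Ctsd was at 915, 180, 102 and 97.8. Psap, the precursor of the saposins that help to break down sphingolipids, was among the genes within 2-fold of both classes, at 1170, 1597 and 1415 in the myeloid classes, and the protease inhibitor Cst3 was highest in dendritic cells (9891, against 4380 in macrophages). Of 24 genes, 23 were measured in each comparison, with 15 higher and 0 lower than in monocytes (median 1.36), 15 higher and 1 lower than in dendritic cells (1.64) and 23 higher than in mesenchyme (3.27).

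Genes for iron and heme, which macrophages recover from dying red cells, were also higher. Hmox1, the enzyme that opens heme, was at 659 CPM in macrophages, 262 in monocytes, 40.2 in dendritic cells and 9.63 in mesenchyme. Blvrb, which acts further along the same path, was at 485, 35.4, 32.9 and 174. Slc40a1, the iron exporter ferroportin, was at 170, 11.8, 0 and 6.90, and Trf, the carrier transferrin, at 720, 130, 245 and 9.37. Of 16 genes, 11 of 13 measured were higher and 0 lower than in monocytes (median 1.44), 10 of 13 and 0 against dendritic cells (1.85), and 13 of 15 and 2 against mesenchyme (1.78). Without the 12 monocytes that held granule protease RNA, the log2 ratio of Hmox1 over monocytes was 0.71 in place of 1.33.

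Among the plotted lists, chemokines had the highest median log2 ratio over measured members against each of the other classes. Ccl2, which draws monocytes through Ccr2, was at 5913 CPM (5821 to 6005) in macrophages, 106 in monocytes, 366 in dendritic cells and 4.81 in mesenchyme, with a log2 ratio of 5.80 (5.33 to 6.31) over monocytes and 4.02 (3.73 to 4.31) over dendritic cells. Cxcl2, which draws neutrophils, was at 4514, 519, 175 and 3.04. Ccl4, which draws monocytes and T cells, was at 3003, 58.9, 329 and 2.53, and Ccl3 at 1586, 47.2, 43.9 and 0.950. Each of these 4 chemokines was highest in macrophages.

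Ccl7 was at 2244 CPM (2188 to 2301) in macrophages and at 5.89 (2 UMIs), 47.5 and 1.84 in the others, and Pf4 at 2237 (2181 to 2294), 5.89 (2 UMIs), 3.66 (1 UMI) and 2.34. The log2 ratios of Ccl7 and Pf4 over monocytes were 8.57 (6.72 to 11.62) and 8.57 (6.71 to 11.61). Ccl12, another Ccr2 ligand, was at 889 in macrophages and at 0 in monocytes and dendritic cells, at least 100.5-fold and 81.0-fold higher, and Ccl8 was at 522 and likewise at 0 in both, at least 59.1-fold and 47.7-fold higher. Their promoters are shown above.

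Not every chemokine was higher. Ccl6 and Ccl9 were lower in macrophages (55.4 and 53.5 CPM) than in monocytes (327 and 245), with log2 ratios of −2.56 (−2.93 to −2.20) and −2.19 (−2.59 to −1.78). Cxcl16, a membrane-bound chemokine, was at 148 in macrophages, 0 in monocytes and 201 in dendritic cells, and Cxcl12, the chemokine of stromal cells, was at 2.22 in macrophages against 67.8 in mesenchyme. Of 23 listed chemokines, 14 of 16 measured were higher and 2 lower than in monocytes, with a median log2 ratio of 4.11, the highest of the 17 lists plotted. For 6 of these 16 the ratio rests on the floor of 3 UMIs, and the median describes the measured members only. Against dendritic cells 11 of 16 were higher and 2 lower (median 3.60), and against mesenchyme 15 of 17 and 2 (9.06).

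Genes that respond to enzymatic dissociation of tissue had their highest summed level in macrophages. Against dendritic cells their median log2 ratio (0.48) was close to that of all genes (0.42). Of the 19 listed, 7 were higher there by 2-fold or more, Egr1 and Jun among them, and 1 was lower. The 19 listed genes of this response summed to 21593 CPM in macrophages, 7254 in monocytes, 12899 in dendritic cells, 2084 in mesenchyme and 2633 in the free RNA. Egr1, an immediate early transcription factor, was at 1306, 38.3, 300 and 104 in the 4 classes, Jun at 1166, 197, 106 and 129, and the heat shock gene Hspa1a at 2754, 324, 969 and 199. Of the 19, 12 were higher and 0 lower than in monocytes (median 1.34, or 0.76 without the monocytes with granule protease RNA and 0.99 with each cell weighted equally), 7 and 1 against dendritic cells (0.48), and 18 and 0 against mesenchyme (3.79). The part of this response in the levels of Ccl2, Cxcl2, Ccl3, Ccl4, Tnf and the other inducible genes was not tested; values by sub-cluster are given further on.

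**Figure D2:**
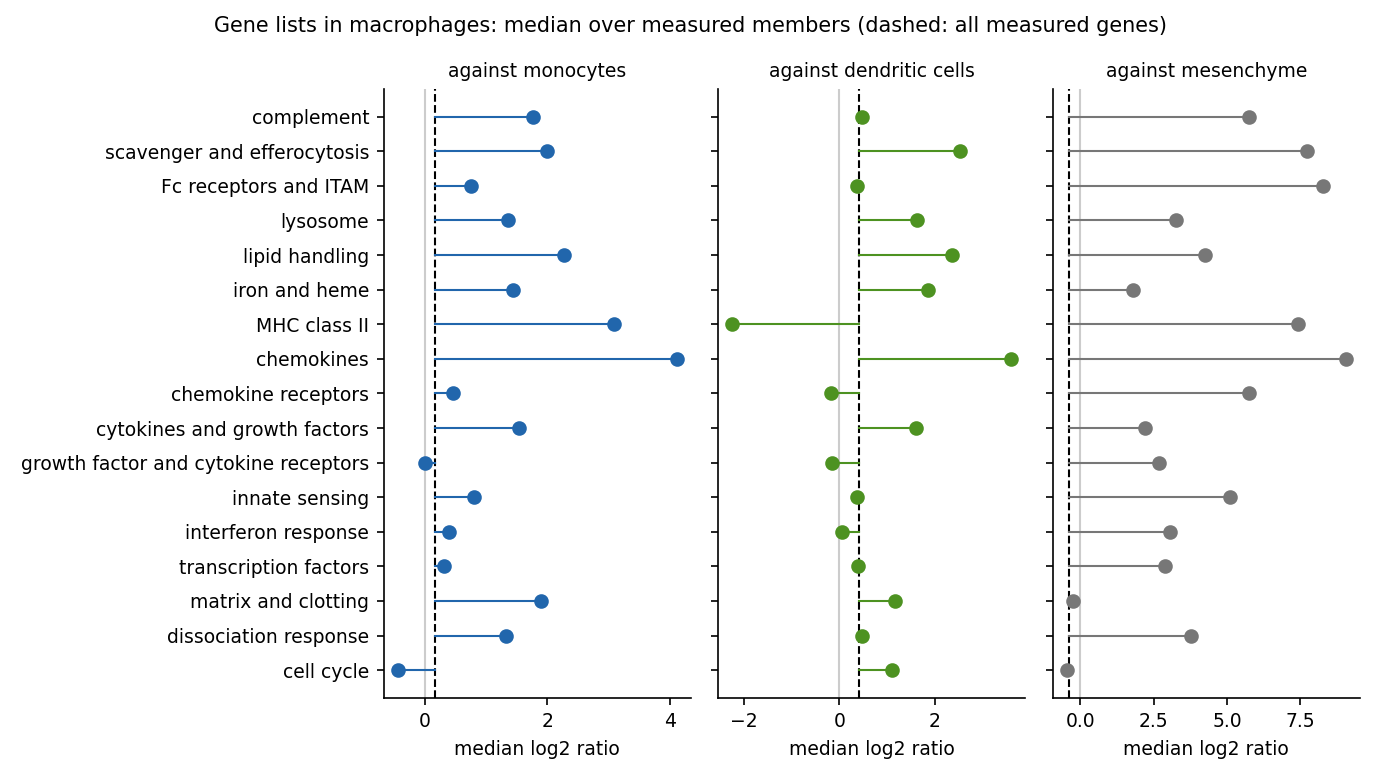
Median log2 ratio of macrophages over monocytes, dendritic cells and mesenchyme (x axes) for 17 gene lists (y axis); dots are medians over measured members and the dashed line is the median of all measured genes (0.16, 0.42 and −0.38). Chemokines lie farthest right against monocytes (4.11), and MHC class II lies left of the line only against dendritic cells (−2.24).

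Among cytokines, Tnf was at 837 CPM (803 to 872) in macrophages, 32.4 in monocytes, 135 in dendritic cells and 0.633 in mesenchyme. Il1b went the other way, at 297 in macrophages, 525 in monocytes and 1224 in dendritic cells, with log2 ratios of −0.82 (−1.06 to −0.58) and −2.04 (−2.23 to −1.85). Its ratio to monocytes became −1.60, past 2-fold, without those with granule protease RNA. Il1a was at 120 in macrophages against 0 in monocytes and 7.31 (2 UMIs) in dendritic cells. The inflammatory cytokine Il6 held 1 UMI in all macrophages, and the regulatory Il10 held 51 UMIs (18.8 CPM).

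Growth factors differed in how far they set macrophages apart from mesenchyme. Igf1, a growth factor of bone and tooth, was at 207 CPM (190 to 225) in macrophages, 0 in monocytes, 18.3 in dendritic cells and 328 (319 to 337) in mesenchyme, so macrophages and mesenchyme were within 2-fold (log2 ratio −0.66), but past it after thinning (−1.04). Hbegf, a ligand of the EGF receptor, was at 143, 0, 14.6 and 8.93, and Tgfb1 at 274, 239, 241 and 143. The ligands of Csf1r were nearly absent from the macrophages themselves: Csf1 held 9 UMIs (3.32 CPM) and Il34 held 0. Of 31 listed cytokines and growth factors, 16 of 24 measured were higher and 1 lower than in monocytes (median 1.54), 15 of 24 and 3 against dendritic cells (1.60), and 14 of 26 and 6 against mesenchyme (2.21).

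Chemokine receptors separated the classes by 2 genes. Cx3cr1, the fractalkine receptor of resident macrophages and microglia, was at 405 CPM (382 to 430) in macrophages and at 23.6, 21.9 and 4.12 in the others. Ccr2, the receptor that monocytes follow into tissue, was at 24.0 (18.5 to 30.6) in macrophages, 522 in monocytes, where the rule could use it, and 329 in dendritic cells. Of 11 receptors 6 were measured against each myeloid class, 2 higher and 1 lower than in monocytes (median 0.47) and 2 and 2 against dendritic cells (−0.17). For 20 receptors of growth factors and cytokines the counts were 4 higher and 3 lower of 17 against monocytes (0.01) and 4 and 4 of 18 against dendritic cells (−0.16), near the median of all genes.

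Transcription factors went in both directions. Maf was at 720 CPM (689 to 753) in macrophages, 11.8 in monocytes, 3.66 (1 UMI) in dendritic cells and 74.8 in mesenchyme, with log2 ratios of 5.93 (4.57 to 7.81), 7.62 (5.14 to 12.93) and 3.27 (3.16 to 3.37). Spi1, which encodes PU.1, the factor that all these myeloid cells need, was at 379, 304 and 274 in the 3 myeloid classes and 0.633 in mesenchyme, and was within 2-fold of both myeloid classes (0.32, 0.03 to 0.63, and 0.47, 0.13 to 0.82). Cebpb was lower than in monocytes (775 against 2199) and Bhlhe40 lower than in dendritic cells (13.3 against 336). Of 36 factors, 9 of 32 were higher and 6 lower than in monocytes (median 0.32), 9 of 33 and 9 against dendritic cells (0.39), and 25 of 32 and 2 against mesenchyme (2.87). The shares over all measured genes were 21.9% higher and 8.03% lower than in monocytes, 27.4% and 6.52% against dendritic cells, and 16.4% and 30.2% against mesenchyme. The share of factors higher than in dendritic cells and their median there were thus near those of all genes (27.4% and 0.42).

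Innate sensors were more often higher than lower in macrophages, as were all measured genes. Of all measured genes, 21.9% were higher and 8.03% lower than in monocytes, and 27.4% and 6.52% against dendritic cells. The sensor median against dendritic cells (0.38) was near that of all genes (0.42). Interferon response genes went in both directions. Tlr7, a sensor of RNA, was at 73.1 CPM in macrophages, 17.7 in monocytes and 3.66 (1 UMI) in dendritic cells, while Cd14, a co-receptor for bacterial lipid, was at 427, 719 and 329. Of 24 sensors in the matrix 7 of 17 measured were higher and 0 lower than in monocytes (median 0.81), and 7 of 17 and 1 against dendritic cells (0.38). Ifitm3, an antiviral membrane protein, was lower in macrophages (477) than in monocytes (2570) and dendritic cells (1930), and of 21 interferon response genes 5 of 14 were higher and 1 lower than in monocytes (0.40), and 4 of 14 and 3 against dendritic cells (0.06).

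Matrix and clotting genes went in both directions. Cd63, a membrane protein of late endosomes, was at 661 CPM in macrophages and 14.7 and 21.9 in the other myeloid classes, and the protease inhibitor Timp2 at 285, 17.7 and 29.2. Fn1 (fibronectin) and Thbs1 (thrombospondin) were at 20.7 and 13.7 in macrophages against 1253 and 581 in monocytes, with log2 ratios of −5.92 (−6.35 to −5.52) and −5.41 (−5.96 to −4.90). Of 27 genes, 10 of 19 measured were higher and 7 lower than in monocytes (median 1.89), and 9 of 17 and 3 against dendritic cells (1.17). These medians fell under 2-fold to 0.62 with free RNA subtracted and to 0.54 after thinning. The genes lowest against mesenchyme were those of its own matrix and signals, such as Col1a1 (424 against 9123, part of it carried as above), Lum (149 against 2335), the WNT antagonists Notum and Dkk1 (10.7 and 9.60 against 327 and 294) and Bmp4 (7.38 against 181).

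Several markers of macrophages of other organs were absent. Of 16 such genes 7 were measured against monocytes, and Gata6, Clec4f and Car4, which mark peritoneal, liver and lung macrophages, held 0 UMIs. Timd4, a marker of long-lived resident macrophages in several organs, held 27 UMIs (9.97 CPM), against 25.6 CPM in dendritic cells. The microglia gene P2ry12 was at 64.6 CPM in macrophages and at 0 in monocytes, and Vcam1, an adhesion molecule known from spleen and marrow macrophages, was at 251, 0, 0 and 7.16. Osteoclast genes were led by Acp5 (199 CPM), whereas 84% of the Ctsk UMIs came from 1 barcode.

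MHC class II lay between the other myeloid classes. Cd74, the invariant chain, was at 5873 CPM (5783 to 5965) in macrophages, 693 in monocytes, 24427 in dendritic cells and 14.1 in mesenchyme, and H2-Aa was at 1389, 91.4, 7950 and 2.79. Of 13 genes in the matrix for MHC class II and its loading, 7 of 9 measured were higher and 0 lower than in monocytes (median 3.08), and 0 of 12 were higher and 11 lower than in dendritic cells (−2.24), which had been chosen by 4 of these genes. The level of the class hid a wide spread between cells, which is described next.

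The share of UMIs from H2-Aa, H2-Ab1, H2-Eb1 and Cd74 had a median of 0.168% per macrophage and ranged from 0 to 11.0%. No UMI of these genes was seen in 138 macrophages (27.3%), and 241 (47.6%) lay under 0.1%, 83 between 0.1% and 1% and 182 (36.0%) above 1%. Dendritic cells ranged from 0.628% to 15.3% with a median of 5.70%, while the mesenchyme had a median of 0 and a maximum of 0.639%. The 168 macrophages with the lowest shares (at most 0.0189%) were called the low group and the 168 with the highest (at least 1.39%) the high group; 18 and 28 cells lay within 20% of these edges. The groups are ranges of 1 measure, not cell types, and their MHC class II genes differ by construction. Apart from the 138 cells at 0, only deep cells could have a share as small as that of the low group. The cell at its upper edge held 5279 UMIs, so membership depended in part on depth.

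**Figure D3:**
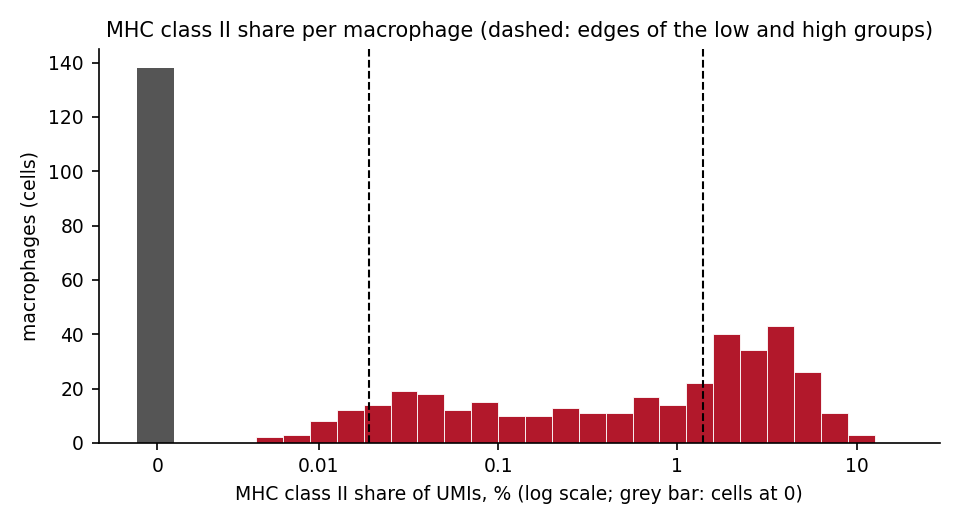
Number of macrophages (y axis) by the share of their UMIs from 4 MHC class II genes in percent (x axis, log scale, with a grey bar for cells at 0); dashed lines are the upper edge of the low group (0.0189%) and the lower edge of the high group (1.39%). The bar at 0 holds 138 cells, and 83 cells lie between 0.1% and 1%.

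Of 5931 genes measured over both groups with the 4 MHC genes set aside, 497 (8.38%) passed 2-fold towards the low group and 150 (2.53%) towards the high group, with a median log2 ratio of 0.24. The low group was somewhat deeper (median 5078.5 UMIs against 4386) and held 7 of the barcodes with a doublet score above 0.15 against 1 in the high group; mitochondrial shares were 9.42% and 9.73%. Summed markers of epithelium were at 4588 CPM in the low and 616 in the high group. Those of mesenchyme were at 888 and 375 and those of neutrophils at 577 and 169. With the 10 barcodes above 1% of epithelium or mesenchyme markers left out, 486 genes were higher and 145 lower in the low group. With doublet scores above 0.15 left out, the counts were 465 and 145. The part of neutrophil RNA was not tested, nor was the part of any of this RNA in most single genes. Several genes that the rule and the label name as macrophage markers differed: Mrc1 was at 1130 CPM in the low group and 517 in the high group, Pf4 at 2860 and 1343, and Ccl7 at 3087 and 1059. The C1q genes and Csf1r were within 2-fold.

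Lyve1, Folr2 and F13a1 were higher in the low group. Lyve1 held 138 UMIs in the low and 3 in the high group, a log2 ratio of 5.09 (3.51 to 7.38). Folr2 was at 181 CPM against 40.4, with a log2 ratio of 2.17 (1.61 to 2.76). F13a1, a clotting factor that resident macrophages make, was at 366 against 87.3, with a log2 ratio of 2.07 (1.69 to 2.47). Summed over its cells, the low group also had more of the uptake genes Stab1 (878 against 258), Gas6 (353 against 115) and Fcna (217 against 65.1).

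Ctsd was at 1229 CPM in the low and 400 in the high group, and the iron exporter Slc40a1 at 208 and 87.3. Igf1 was at 230 against 107, with a log2 ratio of 1.11 (0.74 to 1.49). The genes with the largest ratios also included Pmp22, a myelin protein gene also made outside nerve (1.93, 1.47 to 2.41), Cbr2, a carbonyl reductase (1.79, 1.38 to 2.21), and Syngr1 (2.42, 1.60 to 3.34). Ambn and Amelx, the enamel genes, headed the leading genes of the low group by ratio, but 77% and 72% of their macrophage UMIs came from 1 barcode, which lay in the low group.

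Ccr2 and the interleukin 1 genes were higher in the high group. Ccr2 held 53 UMIs in the high and 3 in the low group, a log2 ratio of −4.58 (−6.90 to −2.95). Il1a held 272 UMIs against 22, with a log2 ratio of −4.06 (−4.76 to −3.44), and Il1b was at 625 CPM against 119, with −2.39 (−2.68 to −2.10). Most Il1a of the macrophages came from 1 sub-cluster of 46 cells (261 UMIs), while Ccr2 was highest in another, both described further on. Cd52, a surface glycoprotein of leukocytes, was at 784 against 124, and Fcgr4, an IgG receptor, at 59.9 against 8.67.

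Plbd1, a phospholipase-like gene (−2.74, −3.56 to −2.00), and Rgs1, which damps chemokine receptor signals (−2.28, −2.68 to −1.91), were also higher in the high group. Ctss, the protease that trims the invariant chain in MHC class II loading, was at 2038 CPM against 856. Some genes did not follow the split: Cx3cr1 was at 386 in the low and 418 in the high group (log2 ratio −0.11, −0.33 to 0.10), Trem2 at 453 and 333 (0.44, 0.22 to 0.67), Spi1 at 377 and 382 (−0.02, −0.24 to 0.20) and Apoe at 19877 and 23659 (−0.25, −0.28 to −0.22).

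**Figure D4:**
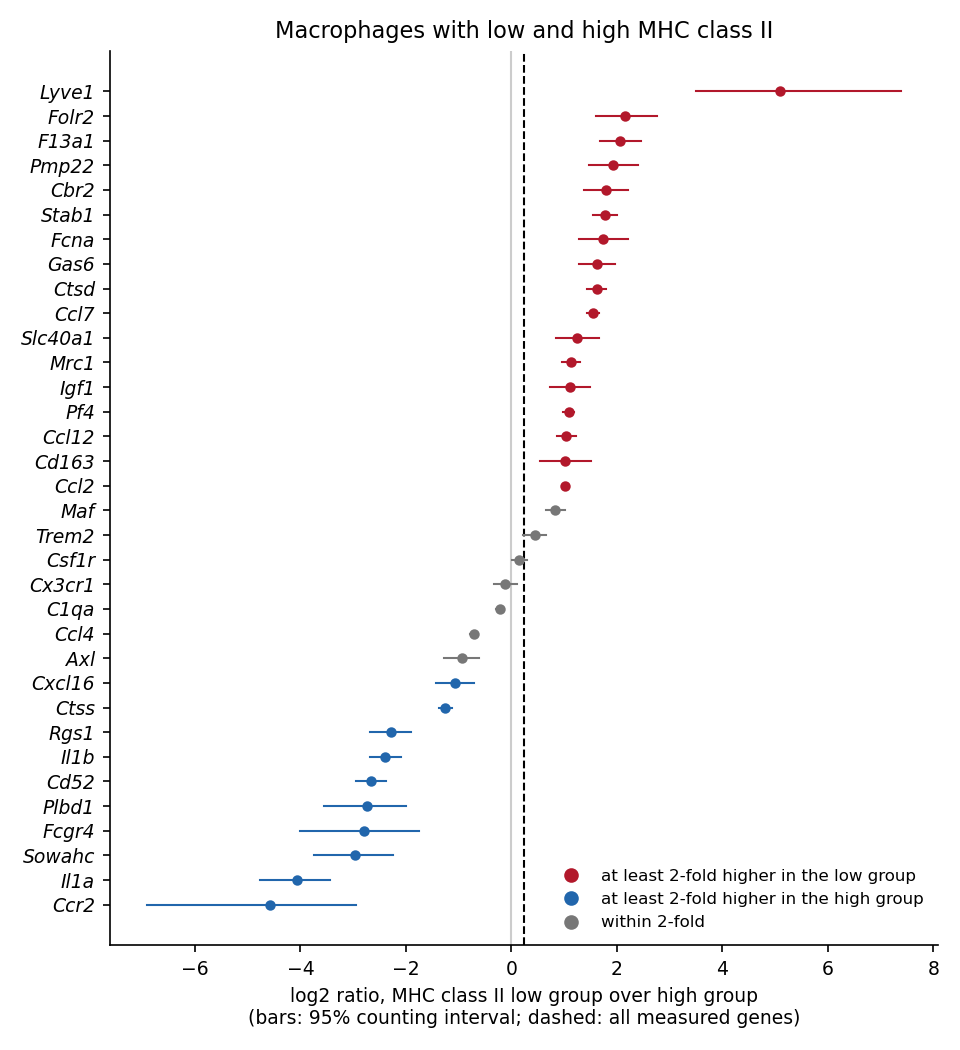
Log2 ratio of the MHC class II low group over the high group (x axis) for named genes (y axis); dots are ratios, bars exact 95% counting intervals, and the dashed line is the median of all measured genes (0.24). Lyve1 lies highest at 5.09 and Ccr2 lowest at −4.58, while Csf1r (0.15) and Cx3cr1 (−0.11) lie near 0.

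By list, the cell cycle genes had the largest share of members higher in the low group among the 17 lists plotted, with 14 of 19 measured at least 2-fold higher, 0 lower and a median log2 ratio of 1.27. The median was 0.76 with all macrophages split at the median share and 0.72 after thinning, both under 2-fold, and the low group was the deeper one. Mki67, a gene of dividing cells, was at 91.5 CPM against 41.7 (1.13, 0.54 to 1.76), and over the whole class it was at 74.6, within 2-fold of monocytes (79.6), dendritic cells (54.8) and mesenchyme (65.7). Without the monocytes with granule protease RNA its log2 ratio to monocytes turned from −0.09 to 1.51, and after thinning that to dendritic cells turned from 0.44 to −0.59, so Mki67 had no stable direction against either. Chemokines had 6 higher and 2 lower of 16 (median 0.20), scavenger genes 6 and 0 of 23 (0.44), markers of macrophages of other organs 0 and 2 of 6 (−0.82), complement 4 and 0 of 13 (0.57) and chemokine receptors 0 and 3 of 6 (−0.64). The dissociation response had 0 higher and 0 lower of 19 (−0.22), and its summed level was 19807 CPM in the low and 24230 in the high group.

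Some differences between the groups changed with the edges of the groups or with the filter on cells. Ccl7 had a log2 ratio of 1.54 (1.43 to 1.66) that became 0.89 when the mitochondrial maximum was lowered to 10%, and Ccl12 had 1.05 (0.87 to 1.22) that became 0.37 when all macrophages were split at the median share and 0.78 with each cell weighted equally. Ccl8 had 0.86 (0.62 to 1.12), which became −0.18 with that split and −0.39 with the 10% maximum, so it had no stable direction. Ctsd became 0.88 with that split, and F13a1 1.31. Ccl2 became 0.69, Mki67 0.71, Pf4 0.81, Igf1 0.84 and Slc40a1 0.87 with it, all under 2-fold with the same sign. Between the low and high groups, Lyve1 had a ratio above 2-fold in every alternative run, from 2.87 to 5.28. Ccr2 (−5.13 to −3.99) and Il1a (−4.17 to −3.37) did so in the other direction.

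Detection in the same cell was compared after thinning to 2000 UMIs. The 21 macrophages with a Lyve1 UMI held at most 4 MHC class II UMIs, and 0 of them held 20 or more, against 39.0% of the 413 without Lyve1. Of the 82 with Folr2, 11.0% held 20 or more, against 43.2% of the 352 without. Of the 20 with Ccr2, 17 held 20 or more, with a median of 59, against 34.8% of the 414 without. Lyve1 and Ccr2 thus marked opposite ends of the MHC class II range, in a small number of cells each.

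Leiden clustering of the 506 macrophages alone gave 7 sub-clusters. They are called by number here because they were set by the same data, so their levels are a description. The genes of the rule and label, the listed cell cycle genes and the mitochondrial and haemoglobin genes were left out of the clustering. Sub-cluster 1 held 170 cells (33.6%) and was led by Hbegf (360 CPM), the orphan nuclear receptor Nr4a2 (358) and Rcan1 (578), apart from Amelx, of which 88% came from 1 barcode. It also had the highest Ccl2 (9031), Ccl7 (3824) and Egr1 (2259) of the 7, and its dissociation response summed to 34265. Sub-cluster 2 held 92 cells (18.2%), led by S100a6 (262) and MHC class II, with a median share of 2.82%, and it had the highest Ccr2 (94.8).

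Sub-cluster 3 held 65 cells (12.8%) with the highest Cd209f (859 CPM), Clec10a (397), Stab1 (1407), Folr2 (286) and Lyve1 (135) of the 7, and with Ccl8 at 1394. Sub-cluster 4 held 63 cells (12.5%) and was led by genes of mitosis, Top2a (262), Ube2c (416), Birc5 (399) and Mki67 (227). Its cells had a median of 8630 UMIs, below only the 10359.5 of sub-cluster 7, and had Cxcl2 at 8982 and Ccl2 at 7768. The MHC class II share was low in both, with medians of 0.0317% and 0.0179%.

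Sub-cluster 5 held 50 cells (9.88%) of low depth, with a median of 1911.5 UMIs and 12.9% mitochondrial UMIs. Its summed dissociation response was 702 CPM, against 8573 to 34265 in the other 6, with Egr1 at 0 UMIs, and its Ccl2 (132), Cxcl2 (26.3), Ccl4 (105) and Tnf (17.5) were the lowest of the 7. Ccl8 was high there, at 1623 CPM, as was Pf4 at 3580, and Trem2 (676), Stab1 (904) and Folr2 (246) were present. Ccl2, Cxcl2, Ccl4 and Tnf were lowest where the dissociation response was lowest, and Pf4 and Ccl8 were not. Pf4 was left out of the clustering, while the response genes and these inducible genes could take part in it, so the contrast is partly set by the choice. The order was not the same among the other 6: sub-cluster 6 had the highest Cxcl2, Ccl4 and Tnf with a response of 23565, below the 34265 of sub-cluster 1. The part of the response and of depth in these levels was not tested.

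Sub-cluster 6 held 46 cells (9.09%) and was led by Il1a, at 1193 CPM against 25.7 in the other macrophages, with Ccrl2 (462) and the survival gene Bcl2a1b (1421). It had the highest Cxcl2 (11506), Ccl4 (9445), Tnf (1997) and Il1b (1211) of the 7, and also the highest level of the microglia gene Tmem119 (251). Mrc1 was at 54.8 there, against 303 to 1545 in the other 6, and Ccl8, F13a1, Slc40a1, Cd163, Folr2 and Lyve1 were at 0 UMIs, with a median MHC class II share of 3.34%. These cells met the rule through C1q (C1qa at 3034) and the other macrophage genes (Csf1r at 813), so the Mrc1 of the label held for them least.

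Sub-cluster 7 held 20 cells (3.95%) with Col1a1 at 4109 and Lum at 1607 CPM, and 10 of the 20 had a doublet score above 0.15, out of 13 such macrophages in all. A mixture of a macrophage and a mesenchyme cell under 1 barcode cannot be told apart from a cell that makes both.

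**Figure D5:**
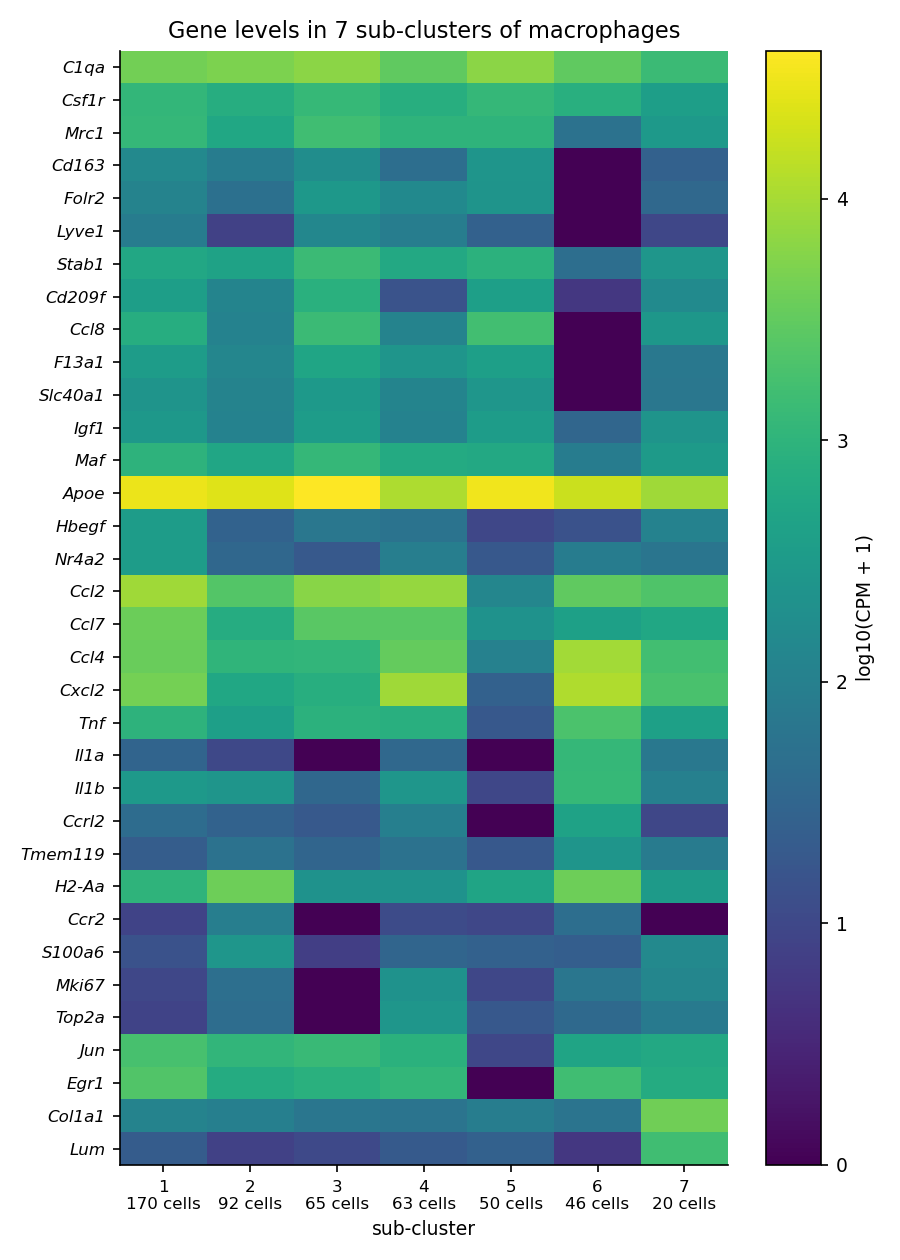
Levels of named genes (rows) in 7 sub-clusters of the macrophages (columns, with their cell numbers) as log10 of CPM plus 1 (colour). Sub-cluster 5 is dark for Egr1 (0) and Cxcl2 (26.3), sub-cluster 6 for Mrc1 (54.8) and Lyve1 (0), and sub-cluster 7 is bright for Col1a1 (4109).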

How the data were processed

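Single cells of 1 incisor suspension were measured by 10x 3′ RNA sequencing. The deposited matrix holds raw UMI counts per gene and barcode, 31053 genes by 6794880 barcodes and 68931830 UMIs in all, unfiltered; per the file headers it was written by software version 3.0.2, and per the submitters' processing notes the build was mm10 and R 3.4.1 and Seurat 3.4.1 were used. The labels and headers used here name no aligner. The 2 titles share 1 matrix, so no value has a replicate.

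Classes were chosen by UMI counts of rule genes, and 1 barcode that met 2 rules was left out, a choice made after seeing the data. Counts were summed per class and given as CPM; 3′ tags are not scaled by gene length. Ratios used genes with at least 30 UMIs over both classes, 2-fold as the threshold and a floor of 3 UMIs over the class where it held 0. Free RNA was taken from barcodes with 1 to 20 UMIs. Sub-clusters came from scanpy 1.11.5 (1000 variable genes, 20 components, 15 neighbours, resolution 0.5). Python 3.11.15, numpy 2.4.6, scipy 1.17.1 and pandas 2.3.3 were used, and the scripts were tested on simulated data.

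The members and gene lists were chosen with earlier results of these data known. Genes were named by this rule: the 12 with the largest ratio in each direction among those with at least 100 UMIs and a UMI in 25% of the higher class, the listed members with the largest ratios or at least 200 CPM, and the marker genes; not all are printed. Of 485 listed genes, 4 symbols were not found in the matrix. Alternatives changed the cell filters, thresholds, scaling, thinning, free RNA, doublets and classes.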

Additional observations from a re-analysis of the deposited data

How the results depend on the processing

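The alternatives were run for counts of genes, for some list medians and for a chosen set of genes, not for every gene given above. Among the values rerun, none past 2-fold changed its sign. Some genes and list medians under 2-fold did, Mki67 and Ccl8 among them. The macrophage share was 8.60% of barcodes with a mitochondrial maximum of 10%. With at least 100 UMIs per gene, 734 genes were higher and 254 lower than in monocytes, 876 higher and 229 lower than in dendritic cells, and 94 higher and 46 lower in the low group than in the high group. After thinning to 2000 UMIs, 838 genes were higher than in monocytes, 947 higher and 294 lower than in dendritic cells, and 184 higher and 63 lower in the low group. Both settings measure fewer genes by construction. A split at the median MHC class II share gave 309 higher genes in the low group. Resolution 0.3 gave 4 sub-clusters in place of 7. Added after seeing the data, monocytes without granule protease RNA moved the log2 ratio of Mki67 from −0.09 to 1.51 and the cell cycle median from −0.44 to 0.69; the cause was not tested.

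The 57 monocytes and 55 dendritic cells limit the precision of both myeloid comparisons. No paired analysis was possible because both titles share 1 matrix and no barcode is tied to either.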
